A study of Mus musculus with 16 samples.

Results

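The comparison described here asks whether loss of the liver's oestrogen receptor alpha had the same effect on liver transcripts in mature and in immature mice. For each gene the quantity is a difference of 2 effects on the log2 scale: the LERKO-against-control change in mature mice minus the same change in immature mice. A positive value means that the LERKO effect was more positive (or less negative) in mature mice. It was computed from the counts of 16 libraries, each from the liver of 1 mouse, for all genes with enough counts to test, which were 13379 of the 35502 genes in the table.

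The 16 mice form 4 groups of 4. Per the labels, mature controls (Mat.Con) and immature controls (Imm.Con) carried no Cre and are called flox mice. Mature LERKO (Mat.LERKO) and immature LERKO mice (Imm.LERKO) carried Cre, and the series title names them as liver-specific knockouts of ERα. The sources used here do not give the promoter that drives Cre, the strain, the sex or the ages, nor whether stage names the age at knockout or at collection. The floxed allele is shared by all 4 groups as far as the labels say. Replicate numbers below follow accession order and only name a library.

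Oestrogen receptor alpha, encoded by Esr1, is a transcription factor that oestradiol activates. It works with coactivators and corepressors at its target genes, and in liver it is known for a part in lipid metabolism and in hepatokine and lipoprotein output. Sexual maturation changes circulating sex steroids and the pattern of growth hormone release, and many liver genes are known to respond to these.

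Total counts ran from 18123974 to 23213905 per library. The 15 hepatocyte markers together made up 11.4 to 18.4% of the scaled counts in every library. Libraries that stand apart within their group bear on every result below. Transcripts of skeletal muscle, a list of 31 genes of which 23 were tested, summed to 1096, 478 and 115 CPM (read counts per library of a fixed size, with TMM factors applied) in mature controls 1, 2 and 4 and to 272 CPM in immature LERKO 4. The other 12 libraries held 26.2 to 34.4 CPM. Mature LERKO 4 held 163100 CPM of 32 acute phase genes, against 20960 to 28990 CPM in the other 15 libraries. Values without them are given beside the results that they moved most, and "the 4 libraries" below means mature controls 1 and 2, immature LERKO 4 and mature LERKO 4. The labels name no sequencing batch. As bulk tissue was sequenced, fewer cells of a type and less RNA per cell cannot be told apart.

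No gene passed an adjusted p of 0.05 for the difference of effects (edgeR quasi-likelihood test, Benjamini-Hochberg over 13379 genes, 0% called), and the smallest adjusted p was 0.566. An unadjusted p under 0.05 was reached by 850 genes, or 6.35%. Of these, 269 had a positive difference (2.01% of tested genes) and 581 a negative one (4.34%). With libraries scaled by their total alone, the median difference over all genes moved by -0.125 on the log2 scale and the split became 73 positive to 998 negative, so the sign of small differences depends on the scaling. The same model called 1 gene within mature mice and 1 within immature mice, Esr1 in both cases (0.00747% each). Unadjusted p-values under 0.05 within mature mice were found for 976 genes (7.3%), 3.45% higher and 3.85% lower in LERKO livers. Within immature mice they were found for 369 genes (2.76%), 1.86% higher and 0.897% lower. Groups that did not overlap made up 1.61% (LERKO higher) and 2.29% (LERKO lower) of genes in mature mice and 0.957% and 0.673% in immature mice.

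The precision of the comparison is given by its standard error. The median SE of a gene's log2 difference was 0.24, and the differences themselves ran from -0.92 at the 5th percentile to 0.46 at the 95th. For 9041 genes, or 67.6%, the 95% interval of the difference lay within 2-fold in both directions. A 2-fold difference between the stages' effects is therefore outside the interval of those genes, whereas the other genes' intervals reach beyond it.

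Esr1 checks the labels. In mature mice its level was 66.7 to 110 CPM in controls and 13.9 to 19.2 CPM in LERKO livers. In immature mice it was 55.3 to 89 CPM and 10.7 to 16 CPM, so that the genotypes stood apart in both stages. The log2 change was -2.33 in mature and -2.50 in immature mice, and the difference between them was 0.17 (SE 0.253, 95% interval -0.36 to 0.71, adjusted p = 0.928, edgeR quasi-likelihood test). No difference in the loss of Esr1 transcript was detectable between the stages. The difference was -0.03 without the 3 libraries with most muscle transcripts, and -0.11 with the summed muscle level as a covariate.

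The gene with the smallest p among those with a positive difference was Tbl1xr1 (chromosome 3, 22076652 to 22216594, plus strand, GRCm38), a protein-coding gene whose product is a subunit of the NCoR and SMRT corepressor complexes, which nuclear receptors recruit. In mature mice the 4 controls were at 29.7, 28.5, 30.9 and 28.4 CPM and the 4 LERKO livers at 39.1, 39.9, 35.2 and 33.4 CPM. In immature mice the controls were at 45.6, 40, 42.4 and 53.6 CPM and the LERKO livers at 37.1, 37.9, 34.4 and 31.1 CPM. Within mature mice all LERKO libraries were above all controls, and within immature mice all were below. The log2 change was 0.33 (SE 0.0985) in mature and -0.37 (SE 0.0983) in immature mice, with a difference of 0.70 (SE 0.139, unadjusted p = 0.000123, adjusted p = 0.566, edgeR quasi-likelihood test). It did not pass the threshold, although DESeq2 gave it an adjusted p of 0.00389. Without the 4 libraries the difference was 0.68.

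Read along the other axis, the 2 LERKO groups held like levels of Tbl1xr1 and the 2 control groups did not. The log2 difference of mature against immature mice was -0.63 (SE 0.0986) in controls, whose libraries did not overlap, and 0.07 (SE 0.0983) in LERKO livers, which did. With LERKO livers that overlap, the opposite order of the genotypes in the 2 stages already sets the controls apart.

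Btd (chromosome 14, 31641028 to 31668579, plus strand) encodes biotinidase, which frees biotin for reuse. Its levels were 65.1 ± 5 CPM in mature controls, 88.5 ± 7.04 in mature LERKO, 80.3 ± 8.31 in immature controls and 75.1 ± 6.19 in immature LERKO livers (SD, n = 4 each). The mature groups did not overlap and the immature groups did. The log2 difference of effects was 0.54 (SE 0.137, adjusted p = 0.566, edgeR quasi-likelihood test), and 0.45 without the 4 libraries. Btd shares exon bases with Hacl1 on the opposite strand, and with the strand setting of the counting unknown its values are uncertain to that extent.

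Sowahb (chromosome 5, 93041123 to 93045022, minus strand), which encodes an ankyrin repeat protein, held 3.45, 7.07, 4.07 and 5.34 CPM in mature controls and 8.53, 7.09, 9.13 and 11.2 CPM in mature LERKO livers. Immature mice had 10.4, 6.77, 5.27 and 7.66 CPM in controls and, for LERKO livers, 6.30, 5.33, 6.08 and 6.02 CPM. Mature LERKO libraries all lay above mature controls, with the closest pair at 7.07 and 7.09 CPM, and the immature groups overlapped. The log2 difference was 1.19 (SE 0.317, adjusted p = 0.566, edgeR quasi-likelihood test), and 1.16 without the 4 libraries.

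None of the next genes by p with a positive difference passed the edgeR quasi-likelihood test (adjusted p 0.566 to 0.694). Zfp791, a zinc finger gene, had a log2 difference of 1.27, with a log2 change of 0.28 in mature and -0.99 in immature mice, where its level was 7.58 ± 2.01 CPM in controls and 3.81 ± 0.575 in LERKO livers (SD, n = 4 each). Pik3ap1, an adaptor of phosphoinositide 3-kinase, had a log2 difference of 0.63 with levels between 49.8 and 93.3 CPM. Abhd2, a serine hydrolase, had a log2 difference of 1.05 and stood at 285 ± 37.1 CPM in mature controls against 436 ± 115 in mature LERKO livers (SD, n = 4 each). Arhgef10l, a guanine nucleotide exchange factor, had a log2 difference of 0.76, and 0.45 without the 4 libraries. Rab11fip4, an effector of Rab11 in vesicle traffic, had one of 1.75, which was 1.05 without the 4 libraries. AC174471.1 is a non-coding transcript that shares 1255 exon bases with Btbd9 on the same strand, so its log2 difference of 0.94 may hold reads of that gene.

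The 10 genes with the smallest p and a negative difference were mostly genes of striated muscle. Ttn, Tnni2, Flnc, Ldb3, Ryr1, Nrap, Actn2 and Myh1 encode sarcomere, Z-disc and calcium release proteins, and they were read in the libraries that hold muscle transcripts. Ttn, which encodes titin, held 60.2, 13.5, 0.0447 and 4.46 CPM in mature controls and 25.6 CPM in immature LERKO 4. In the other 3 immature LERKO libraries it was at 0 to 0.138 CPM, and in mature LERKO and immature control livers at 0 to 0.211 CPM. Myh1, a fast myosin heavy chain, held 58.5, 56.1, 0 and 11.7 CPM in mature controls, 33.2 CPM in immature LERKO 4 and at most 0.101 CPM elsewhere. No fold is given for these genes, since a group near 0 sets it. Leaving out the 3 libraries with most muscle transcripts left 6 of the 23 muscle genes with enough counts to test.

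Dmbt1 (chromosome 7, 131032053 to 131121630, plus strand), which encodes a secreted scavenger receptor protein of bile duct and other epithelia, had the smallest p of all genes. Levels in mature mice were 0, 17.2, 5 and 4.16 CPM in controls and, for LERKO livers, 0, 0.253, 0.152 and 0 CPM. Immature mice had 0, 0.413, 0 and 0 CPM in controls and, for LERKO livers, 0, 70.1, 36.5 and 3.48 CPM. It was thus present in 3 of 4 libraries of each of 2 groups and near 0 in the others, and at least 1 library of every group was at 0, so all groups overlap. Its unadjusted p was 6.79e-05 and its adjusted p 0.566 (edgeR quasi-likelihood test); DESeq2 gave 0.0223. Among the other bile duct markers, Ehf, an epithelial transcription factor, had a log2 difference of -1.80 (SE 0.606). Of the 14 tested markers, Dmbt1 included, 3 had an unadjusted p under 0.05, all negative, against 4.34% of all genes. Without the 4 libraries 2 of 14 had one, against 1.39%. The list did not go 1 way, as 4 of the 14 were positive with all libraries and 4 without the 4 libraries. Its median difference was -0.77, and -0.55 without the 4 libraries. Without immature LERKO 3 alone the median was -0.42.

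Counting ranks gives a description that needs no model. A gene was counted when all 4 LERKO libraries lay on one side of all 4 controls in mature mice and on the other side in immature mice. This was so for 3 genes in 1 direction (0.0224% of tested genes) and for 4 in the other (0.0299%). The groups did not overlap in the same direction in both stages for 2 genes that were higher and 2 that were lower in LERKO livers (0.0149% each). So 7 genes had separate groups in opposite directions and 4 in the same direction. Whether these counts differ from what the shares within each stage would give was not tested.

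The 3 genes above controls in mature and below controls in immature LERKO livers were Tbl1xr1, Zbp1 and Ppp2r1b. Zbp1 (chromosome 2, 173206612 to 173218923, minus strand) encodes a sensor of Z-form nucleic acids that acts in innate immunity and necroptosis. Levels in mature mice were 10.2, 9.44, 10.3 and 10.6 CPM in controls and, for LERKO livers, 13.3, 13.8, 11.4 and 24.6 CPM, the last in the library with most acute phase transcripts. Immature mice had 19.5, 12.8, 12.6 and 13.4 CPM in controls and, for LERKO livers, 12.5, 12.3, 10.4 and 7.20 CPM, so that the immature groups stood apart by only 12.6 to 12.5 CPM. The log2 difference was 1.09 (SE 0.318, adjusted p = 0.649, edgeR quasi-likelihood test), and 0.60 without the 4 libraries. Ppp2r1b, a scaffold subunit of protein phosphatase 2A, differed less. It stood at 8.93 ± 0.953 CPM in mature controls, 10.9 ± 0.662 in mature LERKO, 11.6 ± 0.35 in immature controls and 10.6 ± 0.436 in immature LERKO livers (SD, n = 4 each). Its log2 difference was 0.41 (SE 0.131, adjusted p = 0.716, edgeR quasi-likelihood test). Ppp2r1b shares 1429 exon bases with Sik2 on the opposite strand and is uncertain to that extent.

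The 4 genes below controls in mature and above controls in immature LERKO livers were Cacna2d1, Slc12a5, Myzap and Col5a1. Cacna2d1 (chromosome 5, 15934691 to 16374511, plus strand) encodes an auxiliary subunit of voltage-gated calcium channels. It held 3.86, 2.70, 0.715 and 1.09 CPM in mature controls and 0.609, 0.464, 0.304 and 0.296 CPM in mature LERKO livers. Immature mice had 0.622, 0.207, 0.251 and 0.227 CPM in controls and, for LERKO livers, 0.644, 0.693, 0.892 and 1.57 CPM. The 3 highest values of Cacna2d1 were in mature controls 1 and 2 and immature LERKO 4, which are the 3 libraries with most muscle transcripts. The difference of effects on the log2 scale was -3.80 (SE 0.764, adjusted p = 0.566, edgeR quasi-likelihood test) and -2.13 without the 4 libraries. DESeq2 gave an adjusted p of 0.00146.

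Col5a1 (chromosome 2, 27886425 to 28039514, plus strand) encodes a chain of type V collagen, which stellate cells of the liver make. It held 10.9, 8.04, 10.2 and 8.92 CPM in mature controls and 7.62, 7.42, 7.66 and 3.26 CPM in mature LERKO livers. In immature controls it held 5.44, 6.10, 6.18 and 5.22 CPM and in immature LERKO livers 6.58, 8, 6.25 and 10.7 CPM. Its log2 difference was -1 (SE 0.322, adjusted p = 0.716, edgeR quasi-likelihood test), and -0.61 without the 4 libraries. Myzap, which encodes a junction protein of cardiac muscle and endothelium, stood at 1.40 ± 0.304, 0.701 ± 0.342, 0.656 ± 0.0865 and 0.998 ± 0.267 CPM in mature control, mature LERKO, immature control and immature LERKO livers (SD, n = 4 each). The difference of effects on the log2 scale was -1.56. Slc12a5, a potassium chloride cotransporter gene of neurons, was read at 42 to 122 counts per group, and its log2 difference was -1.30. It lies below the level floor for named genes and was chosen after its values were seen.

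**Figure D1:**
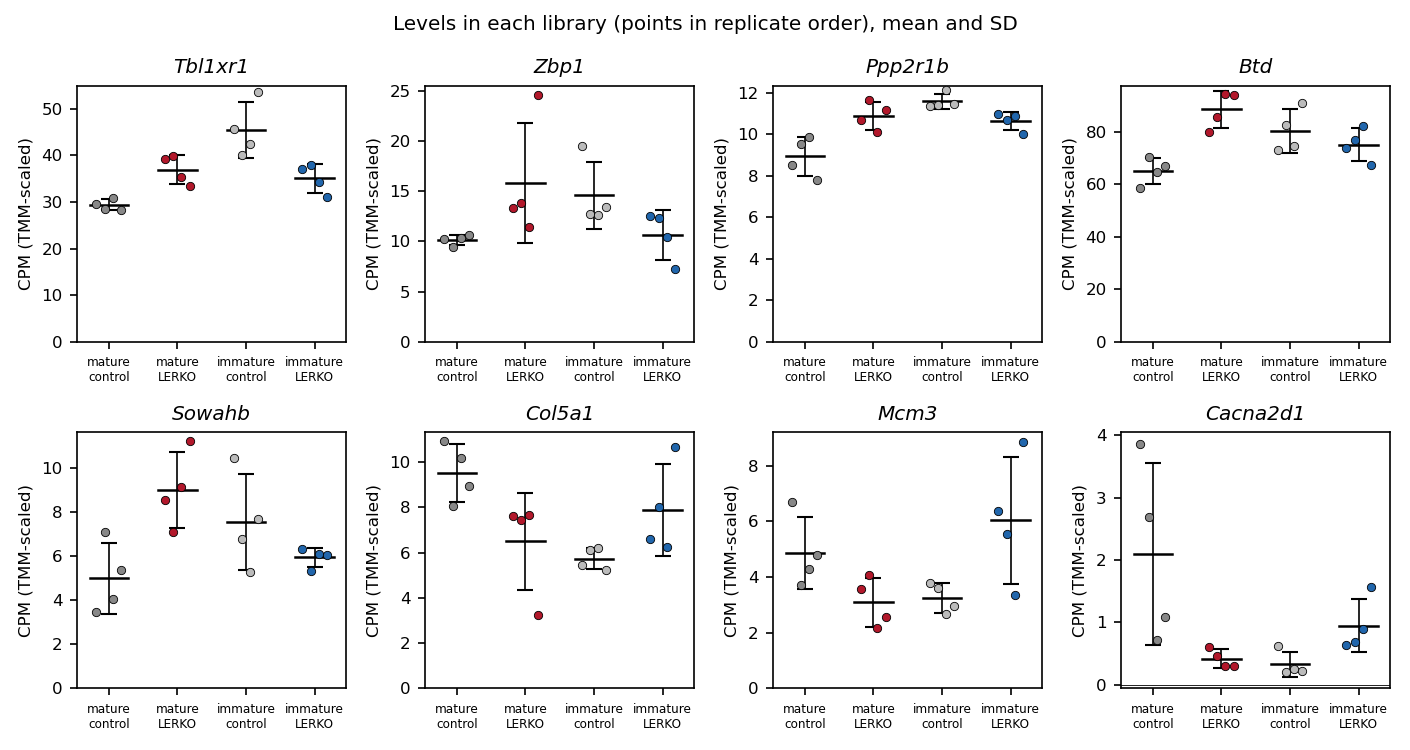
Levels of 8 genes in CPM scaled by TMM, on linear axes that start at 0, in mature control, mature LERKO, immature control and immature LERKO livers. Points are the 4 libraries of a group in replicate order, the wide bar is the mean and the whiskers are 1 SD. Tbl1xr1, Zbp1 and Ppp2r1b were above controls in mature and below controls in immature LERKO livers, and Col5a1 and Cacna2d1 the other way round. None of the 8 passed an adjusted p of 0.05 in the edgeR quasi-likelihood test, whereas DESeq2 called Tbl1xr1 and Cacna2d1.

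The rule that chose the 7 genes largely fixes where their stages differ. If the LERKO libraries of the 2 stages overlap, the rule forces their control libraries apart. The control libraries of the 2 stages did not overlap in 7 of the 7 genes, whereas this was so for 8.86% of all tested genes. The LERKO libraries of the 2 stages did not overlap in 1 of the 7, Cacna2d1, against 1.52% of all tested genes. In Slc12a5 the log2 difference of mature against immature mice was 1.34 in controls and 0.04 in LERKO livers, in Col5a1 0.73 and -0.27, and in Ppp2r1b -0.38 and 0.04. Because the rule sets the result for every gene of the 7 except Cacna2d1, their counts cannot be set against the shares of all genes. They describe the genes, and nothing was tested.

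Across genes the 2 effects leaned in opposite directions when all libraries were used. They had opposite signs in 54.7% of tested genes, and Pearson's r between them was -0.624 and Spearman's rho -0.166 over 13379 genes. The comparisons share no library, but genes are not independent replicates. Without the 23 muscle genes r was -0.437. Without the 3 libraries with most muscle transcripts r was -0.0102 and rho 0.114, and without the 4 libraries r was -0.0712 and rho 0.0775. The inverse relation across genes was thus not seen without these 3 libraries, of which 2 are mature controls and 1 is an immature LERKO liver.

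**Figure D2:**
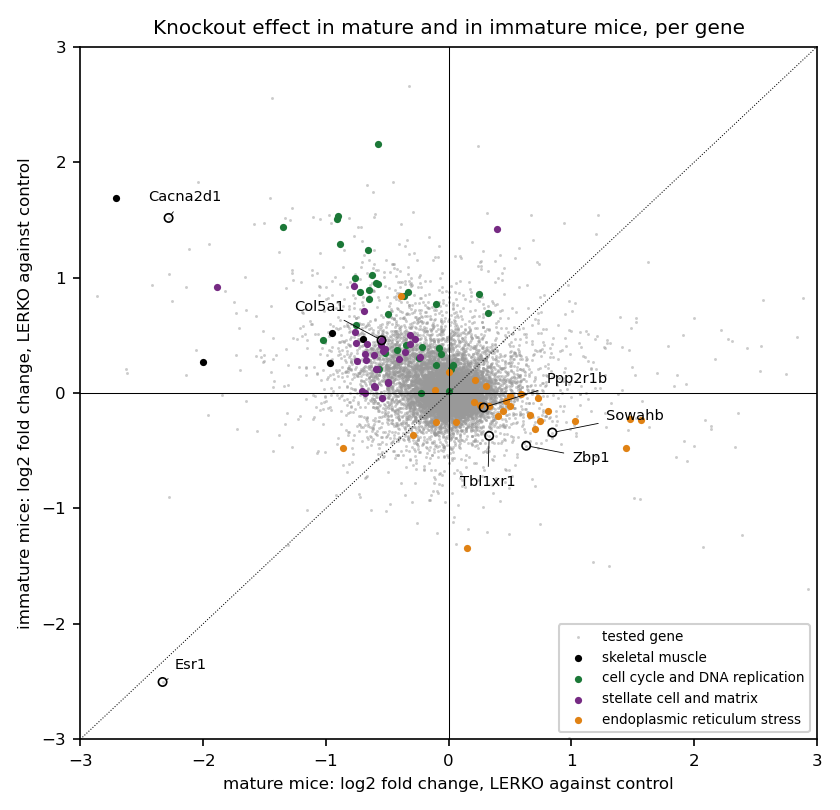
Each point is 1 tested gene, with the log2 fold change of LERKO against control in mature mice on the x axis and in immature mice on the y axis, and the dotted line marks equal effects. Coloured points are members of 4 gene lists and open circles are genes named in the text. The axes end at a log2 value of 3 in each direction, and 55 genes lie outside them, 18 of which are in the muscle list. Esr1 lies near the line of equal effects at -2.33 and -2.50.

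Gene lists were described by the counts and the median of their members, beside those of all tested genes, of which 48.7% had a positive log2 difference with a median of -0.01. No member of any of the 26 lists passed the adjusted threshold in the edgeR quasi-likelihood test (DESeq2 called 11 members of the muscle list, and Dmbt1 of the bile duct list), so the counts below are of signs and of unadjusted p-values. A positive sign was found in 0 of the 34 tested genes of the cell cycle and DNA replication, 0 of 24 of de novo lipogenesis, 0 of 31 of stellate cells and matrix and 0 of 29 of endothelial cells. It was found in 31 of 32 acute phase genes, 33 of 35 genes of fatty acid oxidation and 24 of 28 genes of the endoplasmic reticulum stress response. Members of a list vary together between mice and are not independent, and the counts are read with the values by library. With libraries scaled by their total alone, the medians of the growth hormone, hepatocyte, bile acid and xenobiotic lists, all under 0.11 with TMM, turned negative.

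Cell cycle and DNA replication genes had a median log2 change of -0.50 in mature and 0.73 in immature LERKO livers, with a median difference of -1.20. Unadjusted p-values were under 0.05 in 17 of 34, all with a negative difference, against 4.34% of all genes. Foxm1, a transcription factor of the G2 and M phases, held 0.625 to 1.32 CPM in mature controls, 0.304 to 0.633 in mature LERKO, 0.103 to 0.454 in immature controls and 0.46 to 0.881 in immature LERKO livers. The immature groups did not overlap and the mature groups did, and its log2 difference was -2.44 (SE 0.558). Cdc20, an activator of the anaphase-promoting complex, had a log2 difference of -2.78 and shares exon bases with the far more abundant Elovl1 on the opposite strand. Both are read at few counts: Foxm1 had 18 to 79 counts per group. Pcna, the sliding clamp of replication and a member with higher levels, showed a log2 difference of -0.34 (SE 0.147) at 16.2 to 23.6 CPM, and -0.21 without the 4 libraries.

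Mcm3, a subunit of the replicative helicase that was chosen after its values were seen, held 6.70, 3.72, 4.29 and 4.8 CPM in mature controls and 3.55, 4.09, 2.18 and 2.55 CPM in mature LERKO livers. Immature mice had 3.79, 3.62, 2.66 and 2.95 CPM in controls and, for LERKO livers, 6.39, 5.55, 3.35 and 8.86 CPM. The highest control and the highest LERKO value were in 2 of the libraries with most muscle transcripts, and both pairs of groups overlapped. The log2 difference of Mcm3 was -1.54 (SE 0.389), and -1.12 without the 4 libraries. For the whole list the median difference was -0.74 without them, and 3 of 34 genes were then positive. An unadjusted p under 0.05 was then found in 11 of 34, all negative, against 1.39% of all genes.

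Genes of de novo lipogenesis had a median log2 change of -0.33 in mature and 0.64 in immature LERKO livers, and the median difference was -1.06. Unadjusted p-values were under 0.05 in 5 of the 24, all negative, against 4.34% of all genes. Without the 4 libraries they were under 0.05 in 0 of 24, against 1.39% of all genes with a negative difference. Scd1, the main hepatic stearoyl-CoA desaturase, ranged from 5803 to 9497 CPM in mature controls and from 1694 to 6344 CPM in mature LERKO livers. Immature mice had 507, 2262, 6633 and 1430 CPM in controls and, for LERKO livers, 4549, 1890, 4180 and 25700 CPM, the highest in library 4. The SE of its log2 difference of -2.36 was 1.07, and the difference was -1 without immature LERKO 4 and -3.31 without immature control 3. Scd2, the related desaturase, had a log2 difference of -0.88 (SE 0.31) at 2.96 to 8.03 CPM, and -0.52 without the 4 libraries. Without the 4 libraries the median of the list was -0.08, and without immature LERKO 4 alone it was -0.27, so most of the list's median rested on that library. Cholesterol synthesis and uptake genes went the same way, with a median of -0.58 (1 of 25 positive, 0 with an unadjusted p under 0.05) that was -0.03 without the 4 libraries, -0.11 without immature LERKO 4 and -1.07 without immature control 3. Tm7sf2, a sterol reductase gene, had a log2 difference of -0.67 and shares 532 exon bases with Vps51 on the same strand.

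Fatty acid oxidation and ketogenesis genes had the opposite sign. Their median log2 change was -0.01 in mature and -0.27 in immature LERKO livers, and the median difference of 0.30 became 0.26 without the 4 libraries, when 33 of 35 members were again positive. It was 0.15 (30 of 35 positive) without the 3 libraries with most muscle transcripts, 0.17 without mature LERKO 2 and 0.05 with the muscle covariate. No member had an unadjusted p under 0.05 with all libraries. Acadvl, which encodes very long-chain acyl-CoA dehydrogenase, stood at 335 to 386 CPM in mature controls, 331 to 439 in mature LERKO, 407 to 586 in immature controls and 361 to 447 in immature LERKO livers, and all groups of a stage overlapped. Its log2 difference was 0.32 (SE 0.183), and its exons overlap Dvl2 on the opposite strand. Vnn1, the pantetheinase that follows PPAR alpha activity, had a log2 difference of 1.15 (SE 0.644), and its immature controls were split between 56.1 and 58.3 CPM in 2 libraries and 234 and 243 CPM in the other two. Immature controls 1 and 4, which held the high Vnn1 values, were also the 2 lowest of the 16 libraries for lipogenesis genes.

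Nuclear-encoded subunits of the respiratory chain were measured with a small error. For all 75 tested subunits the 95% interval of the difference lay within 2-fold, and their median SE was 0.179. The median difference was small, -0.12, with 3 of 75 positive and no unadjusted p under 0.05. It was -0.11 without the 4 libraries and 0.01 without immature LERKO 3, the library with the highest level of the list. Sdhb, a subunit of complex II, had a log2 difference of -0.30 (SE 0.168), and Cox5b, a subunit of complex IV, one of -0.26 (SE 0.157), which was -0.15 without immature LERKO 3. Genes of mitochondrial biogenesis and dynamics had a median difference of -0.01, and 22 of 24 intervals were within 2-fold. Ppargc1a, the coactivator that drives mitochondrial biogenesis, had a log2 difference of -0.48 (SE 0.266), which was -0.29 without immature LERKO 4 and -0.01 with the muscle covariate. The 13 mitochondrially encoded genes had no counts in the table.

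Endoplasmic reticulum stress genes, which include chaperones and degradation factors of misfolded proteins, had a median log2 change of 0.42 in mature and -0.16 in immature LERKO livers. Their median difference was 0.56, and unadjusted p-values were under 0.05 in 10 of 28, all positive, against 2.01% of all genes. Sdf2l1, an endoplasmic reticulum cochaperone, held 8.73, 8.32, 8.35 and 14.1 CPM in mature controls and 6.80, 23, 52.1 and 28.4 CPM in mature LERKO livers. Immature mice had 18.2, 13.3, 10 and 6.36 CPM in controls and, for LERKO livers, 11.3, 11.7, 9.20 and 8.82 CPM. In mature LERKO livers 3 of 4 libraries were above all controls and library 1 was below them, and in immature mice the groups overlapped. The difference of effects on the log2 scale was 1.70 (SE 0.606). Derl3, a factor of protein retrotranslocation, had one of 1.81 (SE 0.681) at 0.539 to 5.48 CPM. The list had a median difference of 0.45 without the 4 libraries, with 24 of 28 positive. Only 1 of 28 then had an unadjusted p under 0.05, against 0.585% of all genes with a positive difference. Without the 3 libraries with most muscle transcripts 0 of 28 had one, against 0.435%. Over single libraries left out the median was lowest, 0.38, without mature LERKO 3, which had the highest level of the list.

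Acute phase genes had the most positive median difference of the 26 lists, 1.18. Unadjusted p-values were under 0.05 in 17 of 32, all positive, against 2.01% of all genes. The median rested on mature LERKO 4. Saa1, the serum amyloid that inflammation induces, was at 19030 CPM there and at 15.3 to 113 CPM in the other 15 libraries, and its reads may be shared with its close paralog Saa2. Fga and Fgb, which encode fibrinogen chains, were at 14860 and 16080 CPM in that library. S100a9, a calgranulin of neutrophils, was at 32 CPM there and at 0.259 to 2.13 CPM elsewhere. Without mature LERKO 4 the median difference of the list was 0.30. Of the 32 genes 2 then had a positive difference with an unadjusted p under 0.05, against 3.07% of all genes. Without the 4 libraries the median was 0.09, with 0 such genes, against 0.585%. Socs3, the feedback inhibitor of cytokine signalling, had a log2 difference of 1.04 (SE 0.475), and 0.33 without the 4 libraries.

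Markers of the cells in and along the sinusoids were mostly on the negative side. All 31 tested stellate cell and matrix genes had a negative log2 difference, with a median of -0.90 (-0.59 in mature and 0.35 in immature mice). An unadjusted p under 0.05 was found in 17 of 31, against 4.34% of all genes with a negative difference. Tgfb1, a cytokine that drives matrix production, held 13.1, 11.4, 14.2 and 11.8 CPM in mature controls and 9.54, 9.66, 8.06 and 7.58 CPM in mature LERKO livers, so that these groups stood apart. Immature mice had 7.52, 8.16, 5.88 and 5.73 CPM in controls and, for LERKO livers, 7.82, 7.25, 7.70 and 12.4 CPM, and these overlapped. The log2 difference of Tgfb1 was -0.90 (SE 0.243, adjusted p = 0.579, edgeR quasi-likelihood test), and -0.67 without the 4 libraries. Bgn, which encodes the proteoglycan biglycan, had a log2 difference of -0.65 (SE 0.381), and mature LERKO 4 was its lowest library at 35.8 CPM; the difference was -0.37 without that library and -0.25 without the 4. The summed level of the stellate list was 872 to 1094 CPM in mature controls, 264 to 803 in mature LERKO, 530 to 693 in immature controls and 519 to 1017 in immature LERKO livers. Without the 4 libraries all 31 genes remained negative and the median was -0.32. An unadjusted p under 0.05 was then found in 3 of 31, against 1.39% of all genes with a negative difference. Without the 3 libraries with most muscle transcripts it was found in 2 of 31, against 1.02%.

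Endothelial markers had a median difference of -0.74, with 0 of 29 positive. Stab2, a scavenger receptor of sinusoidal endothelium, had a log2 difference of -0.73 (SE 0.283). F8, coagulation factor VIII, had one of -0.87 (SE 0.332), and Eng, a coreceptor for TGF-beta, one of -0.68 (SE 0.421). F8 was at -0.41 and Eng at -0.12 without the 4 libraries, and Eng was at -0.38 without mature LERKO 4 alone. Mature LERKO 4 held the lowest Eng value, 17.6 CPM against 34.7 to 73.2 CPM in the other 15 libraries, and Eng shares exon bases with Fpgs on the opposite strand. The list's summed level was 549 to 805 CPM in mature controls, 363 to 559 in immature controls and 367 to 755 in immature LERKO livers. In mature LERKO livers it was 226 CPM in library 4 and 596 to 632 CPM in the other 3. Without the 4 libraries its median was -0.19, with 3 of 29 positive. Kupffer and myeloid markers had a median of -0.12 (5 of 23 positive), which was -0.36 without the 4 libraries, -0.32 without mature LERKO 4 and 0.02 without immature control 3. Clec4f, a lectin of Kupffer cells, had a log2 difference of -0.11 (SE 0.293), and Lyz2, the myeloid lysozyme, one of -0.74 (SE 0.337), which was -0.49 without immature LERKO 3. S100a9, described above, is also in this list. Its log2 difference was 3.76 (SE 1.645), and 0.61 without mature LERKO 4. In this list 1 of 23 had an unadjusted p under 0.05 in each direction, against 2.01% (positive) and 4.34% (negative) of all genes. Whether the share of these cells in the tissue pieces differed was not tested.

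**Figure D3:**
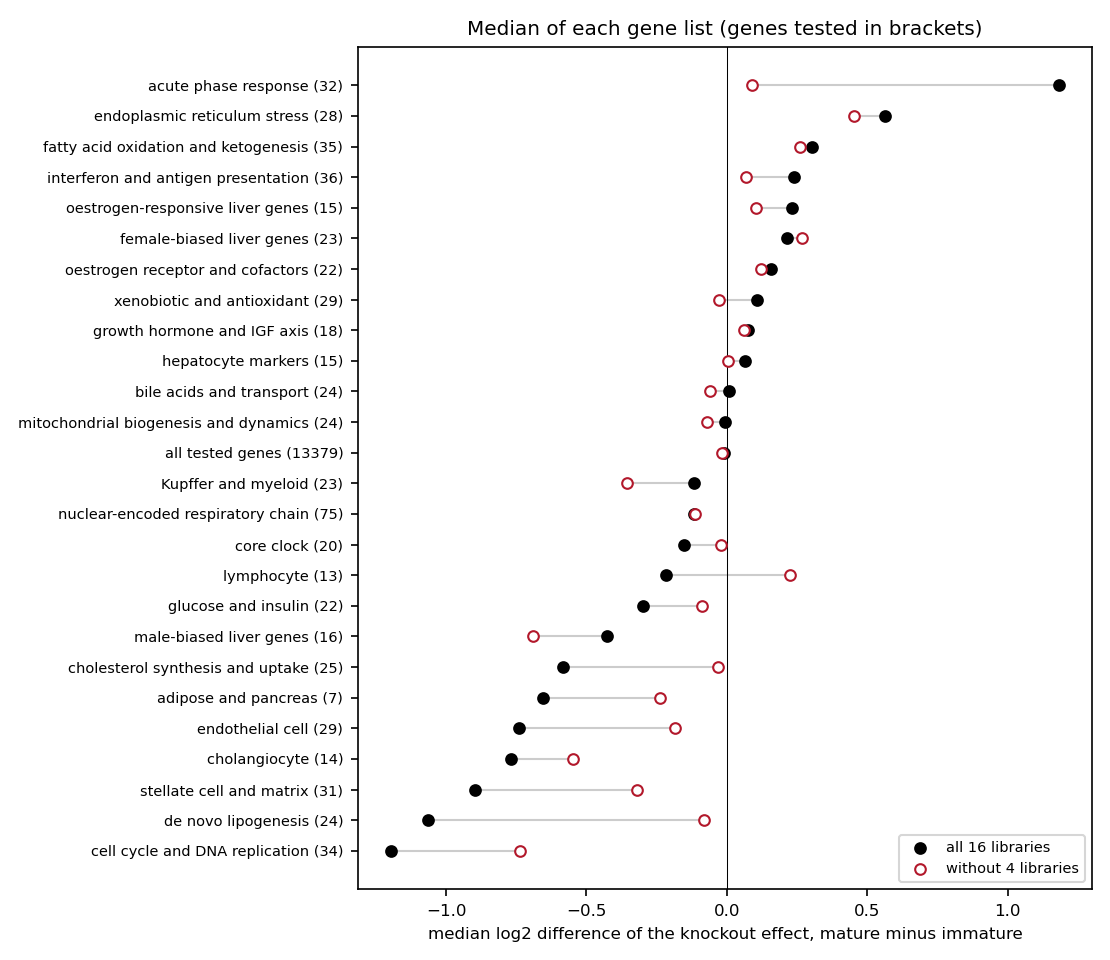
Median log2 difference of the knockout effect, mature minus immature, for 25 gene lists and all tested genes (number tested in brackets), with all 16 libraries (filled) and without the 4 libraries that stand apart (open). The muscle list is left out because its members are near 0 in most libraries. The medians of de novo lipogenesis (-1.06 and -0.08) and of the acute phase response (1.18 and 0.09) moved most, while those of fatty acid oxidation (0.30 and 0.26) and the respiratory chain (-0.12 and -0.11) moved little.

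With all 16 libraries, the oestrogen lists had medians smaller in size than those of stellate and endothelial markers. Several other lists had smaller medians still. Receptors and cofactors of oestrogen signalling had a median difference of 0.16, with 18 of 22 positive and no unadjusted p under 0.05. It was 0.03 (13 of 22 positive) without the 3 libraries with most muscle transcripts and 0.26 without mature LERKO 4. Nrip1, a corepressor that is itself a common oestrogen target, stood at 16.2 to 17.2 CPM in mature controls and at 22.9, 25.2, 24.1 and 14 CPM in mature LERKO livers. In immature mice it stood at 16.1 to 18.6 CPM in controls and 15.4 to 19 CPM in LERKO livers. So 3 of 4 mature LERKO libraries lay above all others in the series, and mature LERKO 4 lay below them. The log2 difference was 0.38 (SE 0.199, unadjusted p = 0.073), and 0.56 without mature LERKO 4. Ncor1, the corepressor that binds the Tbl1xr1 product, had a log2 difference of 0.37 (SE 0.179, 95% interval -0.01 to 0.75).

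Oestrogen-responsive liver genes had a median difference of 0.23 (10 of 15 positive, 1 unadjusted p under 0.05 in each direction), and 0.10 without the 4 libraries. Prlr, the prolactin receptor, had a log2 difference of 0.48 (SE 0.184), with 358 to 589 CPM over the 8 mature and 311 to 436 CPM over the 8 immature libraries, and shares exon bases with Gm21973 on the same strand. Susd4, a complement regulator, had one of -1.85 (SE 0.785), which was -0.98 without the 4 libraries and -1.11 without mature control 1. Agt, angiotensinogen, had one of 0.30 (SE 0.219), and 0.18 without the 4 libraries.

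Genes of sex-biased expression went apart in sign. Female-biased genes had a median difference of 0.21 (18 of 23 positive) and male-biased genes one of -0.43 (3 of 16 positive). Without the 4 libraries the medians were 0.27 (19 of 23 positive) and -0.69 (2 of 17). Without the 3 libraries with most muscle transcripts they were 0.11 and -0.25, and the male-biased median was -0.05 without immature LERKO 2 alone. A1bg, a female-biased gene, held 15.8 to 33.8 CPM in mature controls and 24.4, 129, 40 and 195 CPM in mature LERKO livers. Its immature controls held 4.10 to 32.1 CPM and its immature LERKO livers 6.72 to 20.3 CPM. The log2 difference of A1bg was 2.34 (SE 0.873, adjusted p = 0.768, edgeR quasi-likelihood test), carried by mature LERKO 2 and 4. Cyp3a16, a steroid hydroxylase with close paralogs, was read at 52.4 and 202 CPM in the same 2 libraries and at 0.0841 to 18.6 CPM in the other 14. Cyp2d9, a male-biased cytochrome that also has close paralogs, held 41.6 to 88.4 CPM in mature controls, 20 to 48.2 in mature LERKO, 54.4 to 99.8 in immature controls and 70.2 to 105 in immature LERKO livers. Its log2 difference was -1.25 (SE 0.405), and in LERKO livers the stages did not overlap. No counts of 4 Y-linked genes were found in any library.

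The growth hormone and IGF axis, which sets much of the liver's sex bias, had a median difference of 0.07, with 10 of 18 positive. An unadjusted p under 0.05 was found in 3 of 18, all positive, against 2.01% of all genes. Without the 4 libraries the median was 0.06, and 0 of 18 had an unadjusted p under 0.05. Without the 3 libraries with most muscle transcripts it was -0.02, again with 0 of 18. Over single libraries left out the median ran from -0.14 (without mature LERKO 3) to 0.27 (without immature LERKO 2). Igfals, the acid-labile subunit that carries IGF1 in blood, stood at 132 to 156 CPM in mature controls, 151 to 241 in mature LERKO, 160 to 179 in immature controls and 103 to 183 in immature LERKO livers. The difference of effects on the log2 scale was 0.58 (SE 0.226), and 0.24 without the 4 libraries.

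Hepatocyte markers had a median difference of 0.07, with 10 of 15 positive, and -0.03 without the 3 libraries with most muscle transcripts. Apob, the structural protein of very low density lipoprotein, had a log2 difference of 0.43 (SE 0.174). Tat, tyrosine aminotransferase, had one of -0.98 (SE 0.391). Its mature controls held 1172 to 2478 CPM, above all mature LERKO livers at 858 to 1023 CPM, and the immature groups overlapped at 875 to 2236 CPM. Among 22 glucose and insulin genes 6 were positive, with a median of -0.30 that was -0.12 without immature LERKO 4 and -0.09 without the 4 libraries. Ppp1r3g, a glycogen-targeting subunit of protein phosphatase 1, was at 39 CPM in mature LERKO 1 and at 1.24 to 4.13 CPM in the other 3 mature LERKO livers, with 22.2 to 132 CPM in mature controls and 6.16 to 66.5 CPM over the 8 immature libraries. Its log2 difference was -2.84 (SE 1.21), and -4.78 without mature LERKO 1. Interferon and antigen presentation genes had a median of 0.24 (28 of 36 positive), the core clock -0.15 (8 of 20), bile acid genes 0.01 (12 of 24) and xenobiotic and antioxidant genes 0.11 (17 of 29). These medians were 0.07, -0.02, -0.06 and -0.03 without the 4 libraries. Lymphocyte markers had a median of -0.22 (4 of 13 positive) that was 0.23 (8 of 13) without the 4 libraries. Adipose and pancreas markers had one of -0.66 (1 of 7) that was -0.24 (3 of 7) without the 4 libraries and 0.19 without immature LERKO 2.

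**Figure D4:**
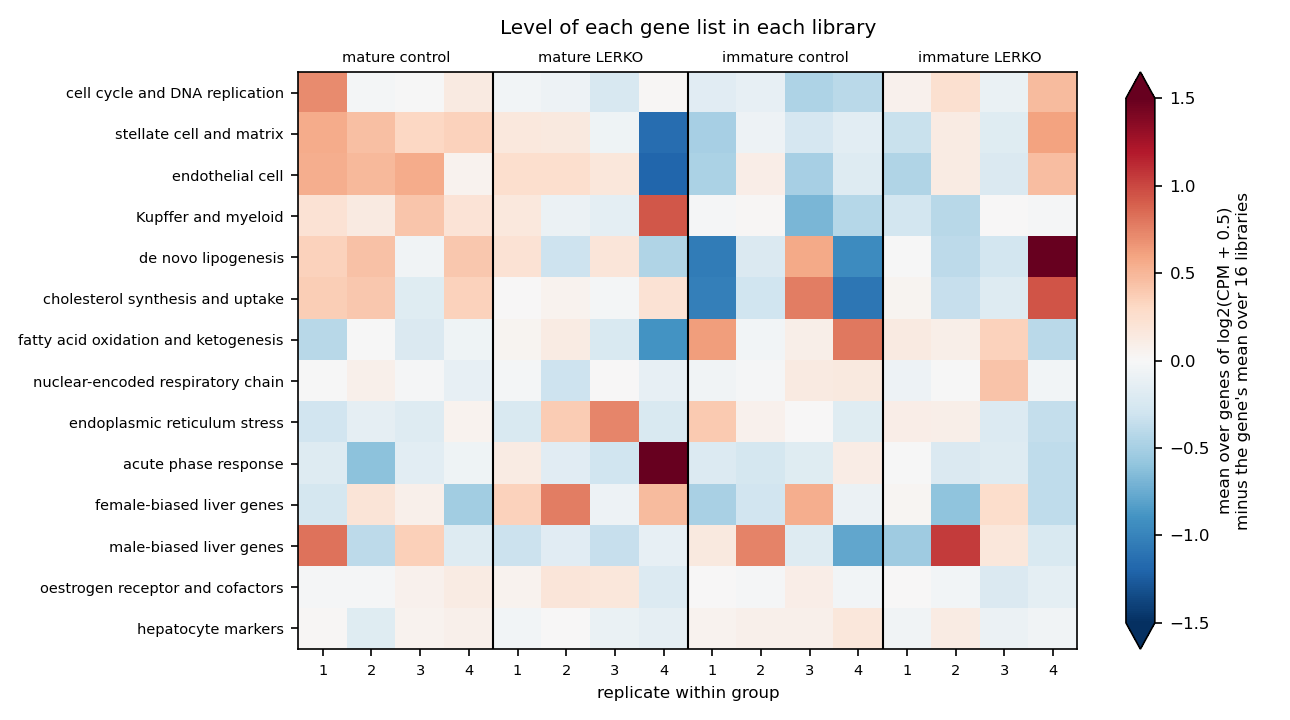
Level of 14 gene lists (rows) in each of the 16 libraries (columns, by group and replicate), as the mean over tested genes of log2(CPM + 0.5) minus the gene's mean over all libraries. Colours are capped at a value of 1.5 in each direction. Mature LERKO 4 was high for acute phase genes and low for stellate and endothelial markers, immature LERKO 4 was high for lipogenesis (1.52), and mature LERKO 3 (0.73), immature control 1 (0.39) and mature LERKO 2 (0.38) were highest for endoplasmic reticulum stress.

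The contrast can also be read as the stage difference in LERKO livers minus that in controls. Cell cycle genes were higher in mature than in immature controls (median log2 difference 0.63) and slightly lower in mature than in immature LERKO livers (-0.23). Stellate markers gave 0.58 in controls and -0.24 in LERKO livers, and endothelial markers 0.72 and -0.03. Fatty acid oxidation genes were lower in mature mice in both genotypes, by a median of -0.46 in controls and -0.22 in LERKO livers. Endoplasmic reticulum stress genes gave -0.22 and 0.33. For all tested genes the medians were 0.02 and 0.00, and the control libraries of the 2 stages were separate in 8.86% of genes against 1.52% for the LERKO libraries. These stage differences use all 16 libraries and were not computed without the 4 libraries. The median difference of effects without those was -0.74 for cell cycle genes, -0.32 for stellate markers and -0.19 for endothelial markers. It was 0.26 for fatty acid oxidation and 0.45 for endoplasmic reticulum stress genes.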

How the data were processed

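Liver RNA of 16 mice was compared, 1 library per mouse and 4 per group. The authors deposited 1 table of read counts per gene and library. In 5 of its columns the deposited values are estimated counts, since 10 values of 2 genes are not whole, and these were rounded. The submitters' processing notes name mm10, STAR, limma and R 4.05, without their roles. The counting program, its annotation and its strand setting were not given in the sources used here. Per the labels' protocols, libraries were stranded and paired-end.

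The filter was filterByExpr of edgeR 4.0.16 (minimum count 10, minimum total 15). TMM factors lay between 0.852 and 1.07. The quasi-likelihood test of edgeR was fitted in 1 model with a coefficient per group, and its p-values were adjusted by Benjamini-Hochberg over 13379 genes, with a threshold of 0.05. An SE is the size of a log2 value over the square root of F. Levels are CPM, with SD over 4 libraries. No list was tested as a set.

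Genes named are Esr1, the 10 smallest p-values in each direction (mean log2 CPM not below 0), up to 5 genes per opposite pattern, and from each list the 2 highest and the 2 with the smallest p; 1 gene that this rule names is not reported here. Members and lists were chosen with earlier results of these data known. Positions come from GENCODE vM21, on GRCm38 (35465 of 35502 identifiers matched). Alternatives were DESeq2 1.42.0, limma-voom 3.58.1 with and without sample weights, RLE factors, total counts alone, other filters and thresholds, a robust fit, a muscle covariate, and libraries left out. The test was checked on simulated counts.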

Additional observations from a re-analysis of the deposited data

Results flagged for a closer look

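In groups of 4 libraries, 1 library stood far from the other 3 in 36 of the 256 groups looked at for the genes named. The rule used singles out about 1 in 20 groups when values are independent and normally distributed. Many genes here are read at few counts or vary together between libraries. The 36 groups can therefore not be set against that rate. Immature LERKO 4 was highest for muscle genes, with Tnni2 at 8.13 CPM (others 0.092 to 0.167), Ttn at 25.6 (0 to 0.138), Flnc at 4.36 (0.267 to 0.39), Ldb3 at 3.67 (0 to 0.16), Ryr1 at 4.36 (0 to 0.092), Nrap at 3.77 (0 to 0.0558), and Actn2 at 3.48 and Myh1 at 33.2 with 0 in the other 3. The same library was highest for Scd1 (25700 CPM, others 1890 to 4549) and Tgfb1 (12.4, others 7.25 to 7.82). Low muscle values stood out where the other libraries of a group were at or near 0: Ldb3 at 0.1004 CPM, Ryr1 at 0.0502 and Actn2 at 0.0502 in immature control 3, Nrap at 0.0518 in immature control 1, Ryr1 at 0.304 and Myh1 at 0.101 in mature LERKO 3, and Nrap at 0.355 in mature LERKO 4.

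Mature LERKO 4 was highest in its group for Saa1 (19030 CPM, others 25.5 to 94.4), Fga (14860, others 4096 to 5450), Fgb (16080, others 4136 to 5192), S100a9 (32, others 0.295 to 2.13) and Clec4f (112, others 67.7 to 73.7), and lowest for Col5a1 (3.26, others 7.42 to 7.66). Mature LERKO 2 was lowest for Scd1 (1694 CPM, others 5799 to 6344), and mature LERKO 1 highest for Ppp1r3g (39, others 1.24 to 4.13).

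Among controls, mature control 1 was highest for Cdc20 (1.57 CPM, others 0.581 to 0.697) and Saa1 (33.7, others 24.6 to 25.6). Mature control 2 was lowest for AC174471.1 (1.58 CPM), mature control 3 highest for Prlr (419) and mature control 4 highest for Sdf2l1 (14.1). Immature control 1 was highest for Zbp1 (19.5 CPM, others 12.6 to 13.4) and Cacna2d1 (0.622, others 0.207 to 0.251), and immature control 2 for Dmbt1 (0.413, others 0) and Cdc20 (0.465). Immature control 3 was highest for Cyp3a16 (18.6 CPM, others 0.778 to 1.93) and Ppp2r1b (12.1).

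The 7 genes whose 4 LERKO libraries lay on opposite sides of their controls in the 2 stages had log2 differences of effects of 0.702 (Tbl1xr1), 1.09 (Zbp1), 0.411 (Ppp2r1b), -3.8 (Cacna2d1), -1.56 (Myzap), -1 (Col5a1) and -1.3 (Slc12a5). The difference itself was tested and none passed the edgeR quasi-likelihood test with Benjamini-Hochberg adjustment.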

How the results depend on the processing

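No gene passed the edgeR quasi-likelihood test with RLE factors, with total counts alone, without the filter on low counts, with 1 CPM in 4 libraries, with a robust fit, with the muscle covariate, at an adjusted p of 0.1, with a log2 difference of at least 1, in limma-voom with or without sample weights, or without the libraries that stand apart. Leaving out each library in turn also gave a lowest count of 0 and a highest of 0, with a smallest adjusted p between 0.0773 (without immature LERKO 1) and 0.918. DESeq2 was the exception with 22 genes, 21 lower and 1 higher (Tbl1xr1), of which 11 are in the muscle list; the cause was not tested. The count of genes with an unadjusted p under 0.05, 850 in the text, was 1293 without the filter, 168 with the muscle covariate, 197 without the 3 libraries with most muscle transcripts, 267 without the 4 libraries, and between 462 (without immature LERKO 4) and 1280 (without immature LERKO 1) over single libraries left out.

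Genes above controls in mature and below them in immature LERKO livers numbered 3 in the text, 0 with total counts alone, 6 without the 3 libraries with most muscle transcripts and 12 without the 4 libraries, and 3 to 14 over single libraries left out. The opposite pattern held 4 genes in the text, 8 with total counts alone, 7 without the filter, 10 without the 3 libraries with most muscle transcripts, 8 without mature LERKO 4 and 21 without the 4 libraries, and 4 to 26 over single libraries left out. Fewer libraries make groups that do not overlap easier to obtain.

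Of the genes named, the difference of Esr1 changed sign with the muscle covariate (-0.107) and without the 3 libraries with most muscle transcripts (-0.0251), and that of Clec4f without immature control 3 (0.0591), where single libraries left out gave -0.296 to 0.0591. No paired analysis was possible because the labels give no replicate numbers shared between groups. Depth limits genes read at under about 1 CPM, such as Foxm1, Cdc20 and Slc12a5.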

Other observations

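Without the 4 libraries that stand apart, no gene passed the edgeR quasi-likelihood test, and the smallest adjusted p was 0.9996. The following genes, which the report does not describe, had an unadjusted p under 0.05 both with and without these libraries. They were chosen after their values were seen, and the libraries are shared, so the second value is no independent support. Slc25a28, which encodes the mitochondrial iron carrier mitoferrin 2, had a log2 difference of -0.38 (SE 0.107) with all libraries and -0.46 without the 4. C3ar1, the receptor of the complement fragment C3a on myeloid cells, had one of -1.03 (SE 0.315) and -1.31. Slc37a2, a sugar phosphate exchanger of macrophages, had one of -1.16 (SE 0.31) and -1.32. Papln, an extracellular matrix protein gene, had one of -1.60 (SE 0.457) and -1.07.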
